A study of Homo sapiens with 4 samples.

Results

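The importin alpha family and its partner importin beta were described in RNA from 4 one-colour arrays, 1 for each of PC3-shC, PC3-shESS2, DU145-shC and DU145-shESS2 cells. The genes were KPNA1 to KPNA7, which encode the 7 importin alpha proteins, and KPNB1, which encodes importin beta 1. They were found by matching the RefSeq accession of each probe to a gene symbol, which gave 12 probes for these 8 genes, out of 58196 probes measured on all 4 arrays, which stand for 25121 named genes and further probes without a symbol. The family was chosen by the KPNA7 log2 ratios of both cell lines, which were above 0 after ESS2 knockdown. The KPNA7 values below are therefore a description. KPNA7 was among the genes of the fit across both lines below, but its result there is not reported here. KPNA1, KPNA2, KPNA3 and KPNA5 had 1 probe each, and KPNA4, KPNA6, KPNA7 and KPNB1 had 2 each.

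PC3 and DU145 are established human prostate cancer cell lines that grow without androgen. Per the labels, both shC groups carried a luciferase shRNA and both shESS2 groups an shRNA against ESS2, and the series description has them brought in by lentivirus. The methods of the study instead describe plasmid transfection and puromycin selection for PC3 cells, and do not describe the DU145 knockdown. Their xenograft section, however, calls the cells transduced. No clone is named, and each group is 1 RNA sample on 1 array, so no difference within a cell line has a replicate check or a p-value. The probe for ESS2, the targeted gene, had a processed signal of 133 in PC3-shC and 53.6 in PC3-shESS2 cells, and of 85.7 in DU145-shC and 17.3 in DU145-shESS2 cells. After scaling, ESS2 was 2.74-fold lower in PC3-shESS2 cells and 5.09-fold lower in DU145-shESS2 cells.

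The processed signal is the brightness of a spot after background subtraction. It was put on a log2 scale and the 75th percentile of each array was subtracted, and a log2 ratio is shESS2 minus shC on this scale. The share of spots well above background was 50.8% to 52.6% over the 4 arrays, and no spot outside the controls was saturated. A gene was compared when at least 1 of the 2 arrays of a line was well above background, and a 2-fold difference was used as the limit. Among probes spotted 10 times, the log2 ratio between single spots of 2 arrays had a median SD of 0.079 in PC3, from 286 probes, and of 0.079 in DU145, from 283 probes. Dim probes varied more: with a mean signal under 100 on both arrays the median SD was 0.23 in PC3 (4 probes) and 0.25 in DU145 (7 probes). These SDs cover differences between spots only, and not those between hybridizations or cultures.

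The arrays were set against markers of the labelled lines. CTNNA1, which PC3 cells are known to have lost, was well above background on both DU145 arrays and on no PC3 array. KRT8, KRT18 and EPCAM, which mark epithelial cells, were well above background on all 4 arrays, although EPCAM had a log2 ratio of −2.61 in DU145. Of 8 markers of leukocytes, fibroblasts and endothelium, 5 were well above background on both PC3 arrays and 4 on both DU145 arrays, while CD3E, COL1A2 and DCN were not well above background on any array. In PC3-shESS2 cells CD14 (log2 ratio −2.16) and PECAM1 (−4.51) were lower, and COL1A1 had −0.57. PTPRC and CDH5, the other leukocyte and endothelial markers well above background there, had −0.13 and 0.025. The leukocyte and endothelial sums therefore fell mainly through CD14 and PECAM1. The summed signal went from 289 to 122 for the leukocyte markers and from 270 to 202 for the fibroblast markers. For the endothelial markers it went from 386 to 69.7. In DU145 the same sums went from 203 to 312, from 89.0 to 79.4 and from 31.1 to 38.9. Their part in the results below was not tested. In RNA from whole cultures, a change in the number of cells that express a gene and a change in its RNA per cell cannot be told apart.

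Importin alpha proteins are the adaptors of classical nuclear import. They bind the nuclear localization signal of a cargo in the cytoplasm and, through an amino-terminal domain, importin beta, which carries the complex through the nuclear pore. In the nucleus, Ran bound to GTP releases the cargo, and the exportin CSE1L returns importin alpha to the cytoplasm. The human family falls into 3 subfamilies by sequence, with KPNA2 and KPNA7 in one, KPNA3 and KPNA4 in another, and KPNA1, KPNA5 and KPNA6 in the third. KPNA2 is abundant in dividing cells, whereas KPNA7 is known mainly from oocytes and early embryos and from some cancer cell lines.

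KPNA7 was higher in shESS2 cells of both lines. The probe used for it had a signal of 198 in PC3-shC, 939 in PC3-shESS2, 12.7 in DU145-shC and 65.5 in DU145-shESS2 cells. It was well above background on all 4 arrays, and the DU145-shC value lay close to the lowest signal well above background on that array, which was 8.65. The log2 ratio was 2.10 in PC3, a 4.30-fold higher level in PC3-shESS2 cells, and 2.33 in DU145, a 5.02-fold higher level in DU145-shESS2 cells.

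The second KPNA7 probe had signals of 131 and 599 in PC3-shC and PC3-shESS2 cells, and of 2.4 and 38.4 in DU145-shC and DU145-shESS2 cells. On the DU145-shC array it was not well above background. It gave a 4.15-fold higher level in PC3-shESS2 cells and an at least 4.32-fold higher level in DU145-shESS2 cells. Both probes had the same direction in each line, and the sizes can be set side by side in PC3 only, since the DU145 value of the second probe is a lower bound. With normexp background correction, whose offset of 50 exceeds both DU145-shC signals, the log2 ratio of KPNA7 was 1.83 in PC3 and 0.66 in DU145, so that only the PC3 value remained past 2-fold. The 2 lines differed by 0.22 in their log2 ratio (DU145 minus PC3), beside an SD of 0.25 between dim spots in DU145.

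**Figure D1:**
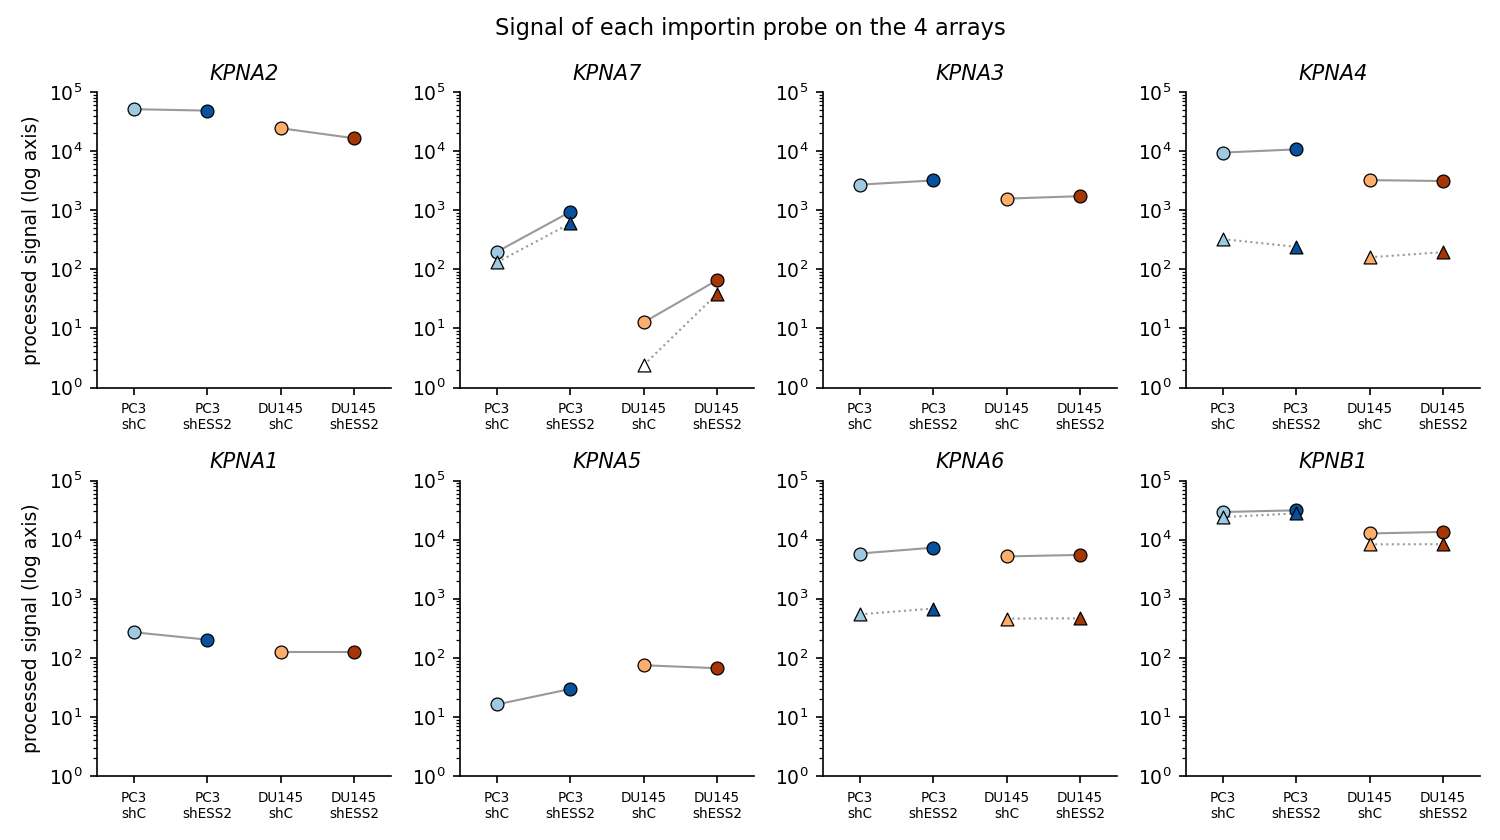
Processed signal (log axis) of each probe of the 8 importin genes on the 4 arrays, with 1 array per group and no replicates. Circles and solid lines show the probe used for the gene, triangles and dotted lines its second probe, and an open symbol a value not well above background. KPNA7 was higher in the shESS2 cells of both lines by both probes, and no other gene was past 2-fold, with KPNA5 in PC3 (1.65-fold higher) and KPNA2 in DU145 (1.52-fold lower) the farthest from level among the probes used.

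Ordered by its scaled log2 level, KPNA7 was highest in PC3-shESS2 cells (1.70), then in PC3-shC (−0.41), DU145-shESS2 (−1.73) and DU145-shC cells (−4.06). The 2 neighbours in this order with the smallest gap, PC3-shC and DU145-shESS2 cells, lay 1.33 apart on the log2 scale. The order was the same under all 7 alternatives for the scaling, the background and the probes. The gap between PC3-shC and DU145-shESS2 cells was smallest with normexp background correction, at 0.79. The arrays of each line share a slide, so that line and slide cannot be told apart.

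**Figure D2:**
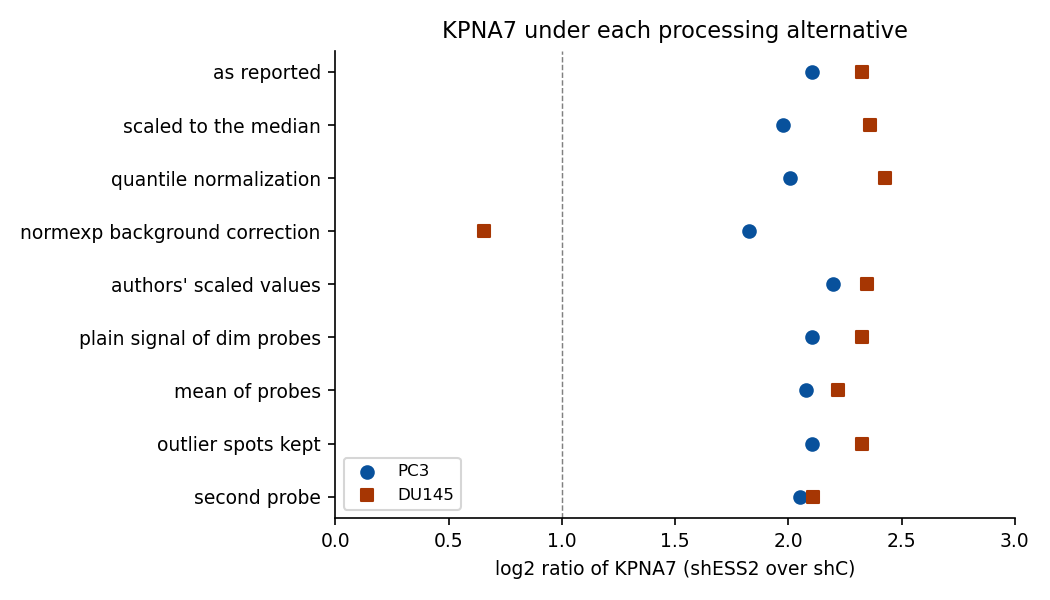
Log2 ratio of KPNA7 (shESS2 over shC) in PC3 (circles) and DU145 (squares) as reported and under each processing alternative. The dashed line marks a 2-fold difference, and normexp background correction in DU145, at 0.66, is the only value to its left. The DU145 points for the second probe and the mean of probes are lower bounds.

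Of the 8 importin genes, KPNA7 was the only one past a 2-fold difference in PC3 and the only one in DU145. Among all genes compared, 7.75% of 16764 were past a 2-fold difference in PC3, of which 3.88% were higher and 3.87% lower as shares of all compared. In DU145 they were 4.83% of 16842, with 2.36% higher and 2.47% lower. Of the 15478 genes compared in both lines, 0.265% were higher by more than 2-fold in both. KPNA7 was 1 of 5 genes (0.0323%) that were more than 4-fold higher in both lines, and the others were the cytokines IL6 and IL24, the hyaluronidase CEMIP and the interferon-induced gene OASL, named here after their values were seen. As the KPNA7 response chose the family, nothing is read from these shares. For IL6, the paper found no change in PC3-shESS2 cells by RT-qPCR.

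KPNA2, the closest relative of KPNA7 in the family, was not higher in shESS2 cells. Its probe had a signal of 51200 in PC3-shC, 48400 in PC3-shESS2, 24400 in DU145-shC and 16500 in DU145-shESS2 cells, so that the lowest value was in DU145-shESS2 cells. The log2 ratio was −0.22 in PC3 and −0.60 in DU145, and both are beyond 2 SDs of the spread between spots and short of a 2-fold difference. In DU145, 8.15% of all genes compared had a lower log2 ratio than KPNA2, and in PC3 32.0%. Under the alternatives its log2 ratio stayed between −0.60 and −0.46 in DU145 and between −0.35 and −0.10 in PC3, where quantile normalization gave the value nearest to 0.

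Promoter sequence was at hand for KPNA1, KPNA2, KPNA3 and KPNA6, from RefSeq on GRCh38.p14, and the letters CCAAT or their complement ATTGG were searched on 250 bases before each start site. CCAAT boxes are common in promoters of genes that follow the cell cycle. The sequences of KPNA2, the importin gene with the lowest ratio in DU145, and of KPNA6, the other gene with a match, are shown 5′ to 3′ with the matches in capitals. The first is chr17:68035485-68035734 on the plus strand and the second chr1:32107806-32108055 on the plus strand.
KPNA2: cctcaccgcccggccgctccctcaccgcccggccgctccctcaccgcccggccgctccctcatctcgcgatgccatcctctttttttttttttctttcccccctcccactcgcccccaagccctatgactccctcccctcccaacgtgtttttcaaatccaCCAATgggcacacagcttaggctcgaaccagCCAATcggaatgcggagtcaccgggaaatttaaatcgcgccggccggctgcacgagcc
KPNA6: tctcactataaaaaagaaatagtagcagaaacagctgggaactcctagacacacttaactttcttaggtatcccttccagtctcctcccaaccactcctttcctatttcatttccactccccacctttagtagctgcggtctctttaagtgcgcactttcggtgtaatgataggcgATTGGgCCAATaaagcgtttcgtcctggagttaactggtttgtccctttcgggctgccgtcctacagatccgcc
KPNA2 and KPNA6 each held 2 matches, whose first bases lay 89 and 58 bases before the start site in KPNA2 and 74 and 68 bases before it in KPNA6. In KPNA2 both matches are on the plus strand and in KPNA6 they are on opposite strands. KPNA1 and KPNA3 held none. Of the 35116 promoters in the table, 32.0% held at least 1 match and 9.53% at least 2. The log2 ratios of KPNA2 and KPNA6 were −0.22 and 0.19 in PC3, and −0.60 and 0.043 in DU145.

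KPNA3 and KPNA4, the subfamily whose cargoes include the p65 subunit of NF-κB, were not past 2-fold in either line. KPNA3 had signals of 2710 in PC3-shC, 3190 in PC3-shESS2, 1570 in DU145-shC and 1730 in DU145-shESS2 cells. After scaling its log2 ratio was 0.094 in PC3 and 0.10 in DU145, within 2 SDs of the spread between spots, and the PC3 value was −0.032 under median scaling. The KPNA4 probe with the higher mean signal had signals of 9450 and 10700 in PC3-shC and PC3-shESS2 cells, and of 3230 and 3120 in DU145-shC and DU145-shESS2 cells. Its log2 ratio was 0.038 in PC3 and −0.090 in DU145. The second KPNA4 probe, with signals of 325 and 240 in PC3 and 160 and 195 in DU145, gave −0.58 in PC3 and 0.25 in DU145, so the 2 probes of KPNA4 disagreed and no single direction is given for this gene.

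KPNA1, KPNA5 and KPNA6 form the subfamily known for importing STAT proteins. KPNA1 had a signal of 271 in PC3-shC and 203 in PC3-shESS2 cells, and of 128 in both DU145-shC and DU145-shESS2 cells. Its log2 ratio was −0.56 in PC3, a 1.47-fold lower level beyond the spread between spots, and −0.040 in DU145, within it. KPNA1 was thus lower in PC3-shESS2 cells by less than 2-fold, and 10.8% of all genes compared in PC3 had a lower ratio. KPNA6 had signals of 5820 and 7310 in PC3-shC and PC3-shESS2 cells, and of 5200 and 5510 in DU145-shC and DU145-shESS2 cells. Both of its probes had a log2 ratio of 0.19 in PC3, and in DU145 they had 0.043 and −0.025.

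KPNA5 had dim signals, of 16.3 in PC3-shC, 29.7 in PC3-shESS2, 74.9 in DU145-shC and 66.8 in DU145-shESS2 cells. All 4 values were well above background, and both PC3 values were below both DU145 values. The log2 ratio was 0.72 in PC3, a 1.65-fold higher level in PC3-shESS2 cells, and −0.21 in DU145. The PC3 ratio was more than 2 times the SD of 0.23 between dim spots, and the DU145 ratio was smaller than the corresponding SD. With normexp background correction the ratios were 0.11 and −0.064. Opposite signs in the 2 lines, each beyond 2 SDs of the spread between all repeated spots, were seen in 16.8% of the genes compared in both.

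KPNB1, the carrier that importin alpha proteins share, had signals of 29300 in PC3-shC, 31300 in PC3-shESS2, 12700 in DU145-shC and 13500 in DU145-shESS2 cells. Its log2 ratio was −0.046 in PC3 and 0.048 in DU145. The second probe gave 0.071 and −0.033, so these 4 ratios lay within 2 SDs of the spread between spots and their signs differed between probes.

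**Figure D3:**
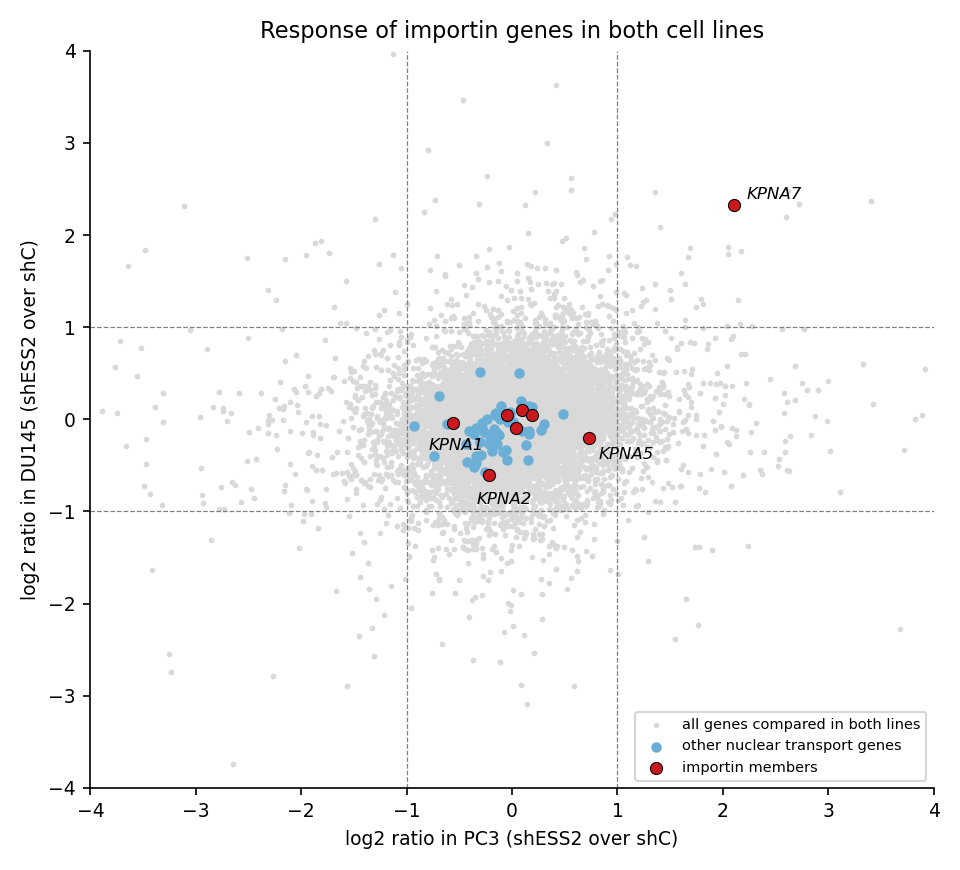
Log2 ratio (shESS2 over shC) in PC3 against DU145 for the 8 importin genes (red), 57 other nuclear transport genes (blue) and all genes compared in both lines (grey), with dashed lines at 2-fold. KPNA7 stands at 2.10 and 2.33 in the upper right, and the other importin genes lie inside the 2-fold lines with the transport genes; 20 genes past 4 on either log2 axis are not shown.

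The design allows 1 test across both lines. It was a limma fit to all 4 arrays that took the cell line as a blocking factor, which leaves a single residual degree of freedom. Of 17126 genes with at least 2 arrays well above background, 0 (0%) passed an adjusted p of 0.05, and 1047 had an unadjusted p under 0.05. For the 7 importin genes other than KPNA7 the mean log2 ratio over both lines ran from −0.41 ± 0.20 (SE) in KPNA2 to 0.26 ± 0.30 in KPNA5, with adjusted p between 0.75 and 0.998 (limma, Benjamini-Hochberg). KPNA1 had −0.30 ± 0.22, and KPNA3, KPNA4, KPNA6 and KPNB1 lay between −0.026 and 0.12. This does not show that these genes were alike in both conditions, as the fit called no gene at all.

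In control cells, the lines themselves differed in the family. KPNA7 was 12.6-fold higher in PC3-shC than in DU145-shC cells, and KPNA5 was 5.70-fold lower. KPNA4 was 2.36-fold higher by the probe used and 1.64-fold higher by the other. KPNA1, KPNA2, KPNA3 and KPNB1 had log2 differences (PC3-shC minus DU145-shC) between 0.48 and 0.90, and KPNA6 had −0.15. Of all 17475 genes compared between the control lines, 42.0% differed by more than 2-fold, with 22.1% higher and 19.9% lower in PC3-shC cells, and 3 of the 8 importin genes did. Both counts moved with the scaling: the genes past 2-fold were 3863 higher and 3480 lower as reported, 6061 and 2397 under median scaling, and 2399 and 5159 in the table scaled by the authors. The median of all genes between the control lines was 0.12. Median scaling moved it to 0.57, and the table scaled by the authors to −0.33. KPNA7 stayed between 1.44 and 4.10 and KPNA5 between −2.96 and −1.08 under the alternatives, whereas KPNA4 had a log2 difference of 0.72 under quantile normalization and of 0.79 in the table scaled by the authors, and KPNA6 had 0.30 under median scaling. KPNA1, KPNA2 and KPNB1 passed 2-fold under median scaling, at 1.21, 1.20 and 1.34. In the table scaled by the authors they had 0.32, 0.31 and 0.44, and KPNA3 had 0.034. KPNA6 had −0.60 in that table and −0.63 under quantile normalization. With the mean of probes KPNB1 passed 2-fold, at 1.06, and KPNA4 did not, at 0.97, and the second KPNB1 probe alone gave 1.22.

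The rest of the transport machinery was described from a list of 57 genes, all of which had a probe and could be compared in both lines. None of the 57 was past a 2-fold difference in PC3, where 7.75% of all genes compared were, or in DU145, where 4.83% were. In PC3 the list had a median log2 ratio of −0.15 with 14 genes higher and 43 lower, beside a median of −0.055 over all genes compared, of which 55.7% were lower. These counts in PC3 were 9 and 48 under median scaling, and 22 and 35 with the authors' scaled values. In DU145 the median was −0.11 with 18 higher and 39 lower, beside −0.022 over all genes, of which 52.8% were lower. Counted against the median of all genes, a count that a constant added to an array does not change, 39 of the 57 genes lay below it in PC3 and 38 in DU145. Without a filter on dim genes, which lowers that median, the counts were 35 and 28. The genes named from this list below were chosen after their values were seen, except CSE1L and RAN, which are the direct partners of importin alpha.

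Of 12 import receptors and adaptors, 7 had a ratio below 0 in PC3 and 10 in DU145, and the same numbers lay below the median of all genes. The ratio farthest from 0 in PC3 was that of IPO9, an import receptor for histones and actin, which had signals of 79.5 and 46.1 in PC3-shC and PC3-shESS2 cells and a log2 ratio of −0.93, and of 550 and 536 in DU145-shC and DU145-shESS2 cells with −0.078. TNPO2, a transportin, had −0.61 in PC3 and −0.049 in DU145, and IPO4 had −0.37 and −0.52. Among the 12, the highest ratios in PC3 were those of IPO13 (0.30, and −0.056 in DU145) and IPO8 (0.28, and −0.11 in DU145). IPO9 was thus 1.90-fold lower in PC3-shESS2 cells and close to level in DU145, and it passed 2-fold in PC3 under median scaling only. Its 1 probe was dim in PC3, with both signals under 100, where the median SD between spots was 0.23.

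Of 8 export receptors, 6 had a ratio below 0 in PC3 and 4 in DU145, and the same numbers lay below the median of all genes. CSE1L, which recycles importin alpha, had signals of 24100 in PC3-shC, 21800 in PC3-shESS2, 4820 in DU145-shC and 4650 in DU145-shESS2 cells, and log2 ratios of −0.29 and −0.092. XPO5, which exports microRNA precursors, had −0.43 in PC3 and −0.46 in DU145, and RANBP17 had −0.30 and 0.51. XPO1, the main protein exporter, had 0.17 and 0.14.

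In the Ran cycle, 5 of 7 genes had a ratio below 0 in PC3 and 6 in DU145. In PC3 their median was −0.044, beside −0.055 over all genes, and 3 of the 7 lay below the median of all genes. In DU145 their median was −0.35, beside −0.022, and 6 lay below it. RAN, the GTPase that sets the direction of transport, had a log2 ratio of −0.044 in PC3 and −0.44 in DU145. RANBP1 had −0.35 and −0.39, RANBP3 −0.25 and −0.57, and RANGAP1, the GTPase activator, −0.20 and −0.35. The others were RANBP2 (0.48 and 0.056), RCC1 (0.13 and −0.27) and NUTF2 (−0.037 and −0.030). RAN, RANBP3 and KPNA2 therefore had lower ratios in DU145 than in PC3, and the difference between the lines was not tested.

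Of 30 nucleoporins, the proteins of the pore, 25 had a ratio below 0 in PC3 and 19 in DU145, with medians of −0.15 and −0.13, and 23 and 18 lay below the median of all genes. SEH1L, of the outer ring, had −0.74 and −0.40, and NUP62, of the central channel, −0.34 and −0.48. NUP210, a membrane nucleoporin, had −0.70 in PC3 and 0.26 in DU145, and SEC13, which also serves in vesicle coats, 0.065 and 0.50. The ratios of the 57 transport genes ran from −0.93 to 0.48 in PC3 and from −0.57 to 0.51 in DU145.

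Oocyte and early embryo genes were listed because KPNA7 is known from these cells. Of 25 genes, 24 had a probe, and only 6 could be compared in PC3 and 8 in DU145, as the others were not well above background there. None of those compared had a measured value or a lower bound past 2-fold in either line. With 7.75% and 4.83% of all genes past it, so few genes show nothing particular to the list. The OOEP difference in PC3 and that of FIGLA in DU145 (at least 0.27, from a dim 6.58 to 10.7) are known only as bounds. OOEP, an oocyte-expressed gene, reached a signal of 6.4 in PC3-shC cells, which was not well above background, and 19.5 after knockdown, and it had signals of 581 and 791 in DU145-shC and DU145-shESS2 cells. Its log2 ratio was at least 0.98 in PC3 and 0.41 in DU145. TPRX1, an embryonic homeobox gene, had 0.59 and 0.31. Of the genes compared, 2 had a ratio above 0 and 4 below 0 in PC3, and 5 above and 3 below in DU145. OOEP and TPRX1 were those above 0 in PC3. TLE6, of the same oocyte complex as OOEP, had −0.53 in PC3 and 0.40 in DU145, and GDF9, an oocyte growth factor, had 0.60 in DU145 and was not well above background in PC3. ZP3, of the zona pellucida, had −0.51 and −0.25, and ZAR1L had −0.50 and −0.40. The genes named from this list were chosen after their values were seen.

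The genes on either side of KPNA7 on chromosome 7 were also described. Of the 5 nearest protein-coding genes with a probe on each side, 8 could be compared in PC3, with 1 higher by more than 2-fold beside 3.88% of all genes, and 9 in DU145, with 1 beside 2.36%. Of the 7 compared in both lines none was past 2-fold in both, and as 0.265% of all genes were, nothing about the neighbours is read from this. MYH16, the next gene on one side, had a dim signal of 8.08 in PC3-shC cells and 25 after knockdown, an at least 2.54-fold higher level, and it was not well above background in DU145. SMURF1, the next gene on the other side, which encodes a ubiquitin ligase, had signals of 195 and 278 in PC3 and 90.1 and 130 in DU145, with log2 ratios of 0.37 and 0.49. NPTX2, a neuronal pentraxin, was 2.43-fold higher in DU145-shESS2 cells, from 46.0 to 115, and was not well above background in PC3.

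**Figure D4:**
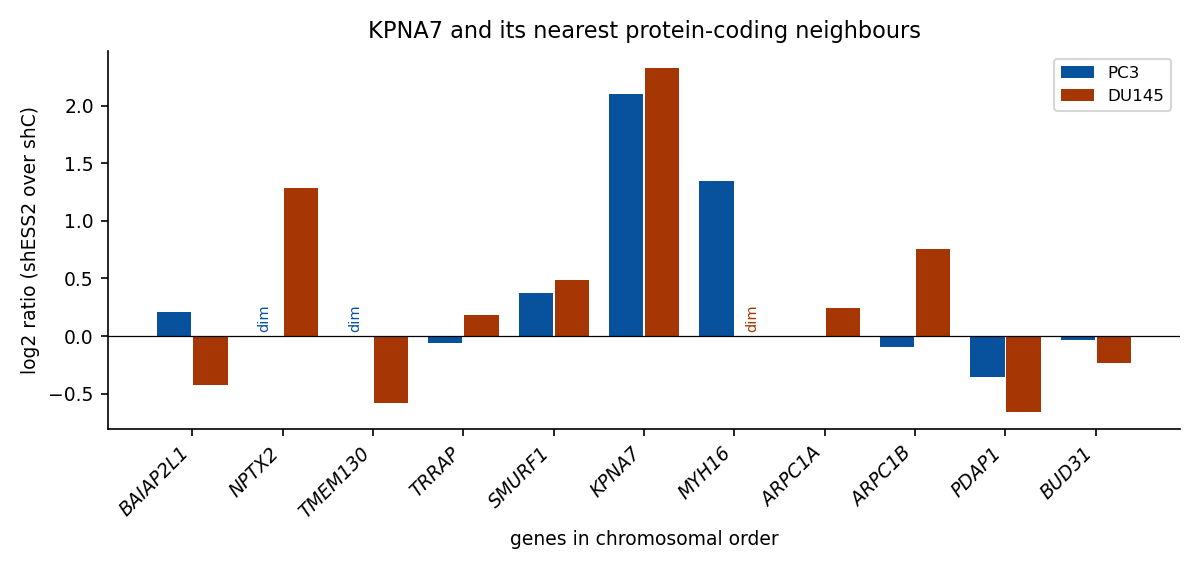
Log2 ratio (shESS2 over shC) in PC3 and DU145 for KPNA7 and its 5 nearest protein-coding neighbours with a probe on each side, in chromosomal order. A gene not well above background on either array of a line is marked dim, and the MYH16 bar in PC3 is a lower bound; KPNA7 is the only gene past 1 in both lines.

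The 5 genes whose pattern over the 4 arrays was nearest to that of KPNA7, by Euclidean distance of log2 values centred on each gene, were IL6, ST8SIA4, CPA4, CLDN4 and SCEL, out of 15477 genes ranked. The pattern includes the difference between the lines as well as the response to knockdown. IL6, a cytokine, was nearest at a distance of 0.52, with signals of 3600 in PC3-shC, 24400 in PC3-shESS2, 336 in DU145-shC and 1930 in DU145-shESS2 cells. Its log2 ratios were 2.62 and 2.48, and its difference between the control lines was 3.11, against 3.65 for KPNA7. By RT-qPCR, however, the paper found IL6 unchanged in PC3-shESS2 cells, so the array value in PC3 stands against it. ST8SIA4, a polysialyltransferase, followed at 0.75 and CPA4, a carboxypeptidase, at 0.76. ST8SIA4 had log2 ratios of 1.64 in PC3 and at least 1.47 in DU145, and CPA4 had 1.79 and at least 1.31, since neither was well above background in DU145-shC cells. Their distances and places in this order therefore rest on the signal to which dim values were raised. CLDN4, a tight junction protein, had 0.97 and 2.22 at a distance of 1.09, and SCEL, of the cornified envelope, 0.42 and 1.62 at 1.29. The second probe of ST8SIA4 stayed below the lowest signal well above background on every array, and the second IL6 probe did so in both shC groups. With 4 arrays, such likeness is a description.

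**Figure D5:**
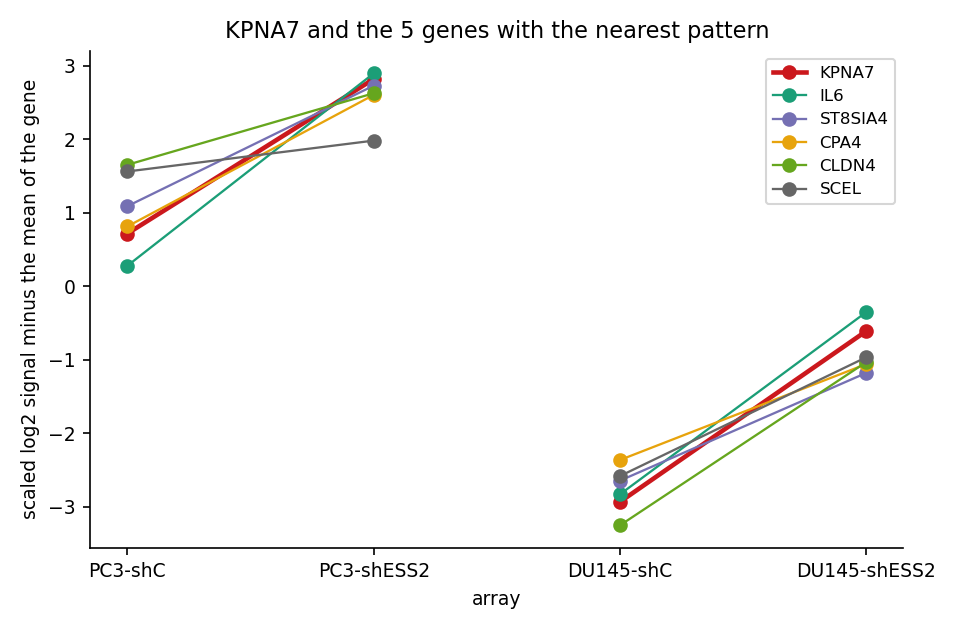
Scaled log2 signal of KPNA7 and the 5 genes with the nearest pattern on the 4 arrays, each centred on its own mean, with dim values raised to the lowest signal well above background and lines joining the 2 arrays of a cell line. All 6 genes were higher in PC3 than in DU145 and higher in shESS2 than in shC cells, and IL6 followed KPNA7 most closely.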

How the data were processed

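RNA from PC3-shC, PC3-shESS2, DU145-shC and DU145-shESS2 cells, labelled with Cy3 from 0.1 µg of total RNA, was hybridized to 1 Agilent array each. The authors deposited the scanner output of Agilent Feature Extraction (12.1.0.3 for PC3, 12.0.3.1 for DU145), in which the intensity of each spot was background-subtracted but not scaled between arrays. A table of scaled intensity values was also deposited. Within rounding, a column is that array's processed signal multiplied by 1 constant, with column medians of 41.6, 47.5, 77.6 and 77.3 in the order above, and how the constant was chosen is not given in the sources used here. The arrays of each line share a slide and a Feature Extraction version.

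Log2 signals were scaled to the 75th percentile of each array. Spots flagged as outliers were left out, spots of a probe averaged, and, of several probes for a gene, the one of greatest mean signal stood for it. A value not well above background was raised to the lowest signal well above background, and a ratio with such a value is a lower bound. Accessions were matched to RefSeq (GRCh38.p14), which named 35080 of 58201 probes, and 58196 were kept once flagged spots had been left out. The members and gene lists were chosen with earlier results of these data known. The genes named are the importin genes, ESS2, list members past 2-fold, 5 neighbours on each side and the 5 nearest patterns, with others marked as chosen afterwards. Fits used limma 3.58.1 (R 4.3.3), and other steps Python 3.11.15, numpy 2.4.6 and pandas 2.3.3. The fold and limma steps were run on simulated data with the same change in both lines and little noise. That checks the code only, and does not carry over to these arrays. Alternatives were median scaling, quantile normalization, normexp (offset 50, median spot signal), the authors' scaled values, plain signal of dim probes, mean of probes, each probe, outliers kept, filters on dim genes and no block in limma. Using the older annotation release alone, and the spread of dim repeated probes, were chosen after seeing the data. The number of arrays limits the precision. Some marker genes are not reported here.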

Additional observations from a re-analysis of the deposited data

Results flagged for a closer look

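KPNA5 had log2 ratios of opposite sign in the 2 lines, 0.7246 in PC3 and −0.2054 in DU145, each beyond 2 SDs of the spread between all repeated spots. The difference between the lines was not tested, as each ratio rests on 1 array per group. Of the 15478 genes compared in both lines, 2597 (16.8%) had opposite signs by the same measure, and the DU145 value is smaller than the SD of 0.25 between dim spots.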

How the results depend on the processing

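KPNA7 stayed higher in shESS2 cells under every alternative, with a log2 ratio of 1.83 to 2.195 in PC3 and 0.66 to 2.43 in DU145, where values resting on the second probe are lower bounds. Its PC3 value was 1.98 with median scaling, 2.01 with quantile normalization, 1.83 with normexp and 2.195 with the authors' scaled values. Its DU145 value was 2.43 with quantile normalization, 0.66 with normexp, at least 2.22 with the mean of probes and at least 2.11 with the second probe alone, both bounds because that probe was dim in DU145-shC cells. With normexp 0 importin genes passed 2-fold in DU145, and the genes past 2-fold numbered 571 in PC3 and 216 in DU145, against 1299 and 813. Without a filter on dim genes they numbered 2338 and 1774. The normexp setting changed the background step, added an offset of 50 and used the median spot signal, and which of these moved the counts was not tested. The no-filter setting adds genes that are dim on both arrays. With median scaling 1 transport gene passed 2-fold in PC3 and the median of the transport list was −0.27, and with the authors' scaled values it was −0.052. Median scaling moved the median of all genes in PC3 by −0.13, and the genes past 2-fold there were 491 higher and 850 lower, against 650 and 649, while the authors' scaled values gave 792 and 535. In DU145 normexp gave 139 higher and 77 lower, against 397 and 416. The limma fit called 0 genes under every alternative, with 23 to 1224 at an unadjusted p under 0.05. The limma fit pairs shC with shESS2 within each line through the cell line block, which is the same as a slide block, and without it 23 genes had an unadjusted p under 0.05. The labels give no replicate numbers for any other pairing. Low signal over background limits KPNA7 in DU145-shC cells and KPNA5 in PC3-shC cells.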
